A study of Mus musculus with 6 samples.

Results

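ISG15 conjugation and deconjugation is represented here by 5 mouse genes, whose RNA was followed in RNA-seq libraries of LPS-treated renal tubular epithelial cells. They are Isg15 itself, the activating enzyme Uba7, the conjugating enzyme Ube2l6, the ligase Herc6 and the protease Usp18. They were taken by symbol from the deposited table of 22442 genes, and all 5 had a mean level above the minimum used for testing, which left 11723 genes. The libraries come from mTECs, a murine renal tubular epithelial line that the paper describes as immortalised and the sample labels describe as magnetically sorted. For 24 h all 6 cultures were kept with LPS (lipopolysaccharide, a bacterial wall component) at 20 μg/ml. Beforehand the 3 cultures labelled LPS were transfected with a negative control, and the 3 labelled LPSKD with a small RNA that the labels call an siRNA and the paper lists as an shRNA against Stat3. No library without LPS was analysed here, so every level below is a level under LPS. The labels do not say whether replicates came from separate experiments, so p-values measure the spread between these cultures, which may be technical.

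ISG15 is a small protein with 2 ubiquitin-like domains that is attached to lysines of other proteins, a step called ISGylation. UBA7 (the E1) activates it, UBE2L6 (the E2) carries it, and a ligase (the E3) transfers it to the target, a role that HERC6 takes in mice. USP18 cuts ISG15 off again, and apart from this activity it binds the interferon receptor subunit IFNAR2 with the help of STAT2 and dampens type I interferon signalling. The genes are known as interferon-stimulated genes, which a transcription factor complex that holds STAT2 and IRF9 induces through a DNA element, the ISRE, that carries repeats of the letters GAAA.

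Upstream sequences of these genes are shown because they are where such elements lie. RefSeq (GRCm38.p6) promoter windows, from 250 bases before to 50 bases after the start, matched 4 of the 5 genes; Usp18 is the other. The stretches below give up to 150 bases before the start in the direction of the gene, kept outside annotated exons, and capitals mark exact matches, on either strand, to GAAA followed by any 2 bases and GAAA, the core of the ISRE. Those of Isg15 (chr4:156200819-156200968, minus strand), Ube2l6 (chr2:84798678-84798827, plus strand) and Herc6 (chr6:57580842-57580991, plus strand) end at the base before the start. That of Uba7 (chr9:107975355-107975504, plus strand) ends 63 bases before it, where another annotated exon of the gene begins.
Isg15: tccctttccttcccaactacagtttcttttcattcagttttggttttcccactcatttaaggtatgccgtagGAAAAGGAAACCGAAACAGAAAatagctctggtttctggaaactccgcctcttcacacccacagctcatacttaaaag
Uba7: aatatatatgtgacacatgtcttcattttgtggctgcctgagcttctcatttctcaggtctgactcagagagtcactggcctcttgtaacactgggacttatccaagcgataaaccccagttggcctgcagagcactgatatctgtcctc
Ube2l6: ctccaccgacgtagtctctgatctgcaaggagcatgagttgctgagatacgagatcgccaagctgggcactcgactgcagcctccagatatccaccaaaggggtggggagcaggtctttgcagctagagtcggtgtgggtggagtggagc
Herc6: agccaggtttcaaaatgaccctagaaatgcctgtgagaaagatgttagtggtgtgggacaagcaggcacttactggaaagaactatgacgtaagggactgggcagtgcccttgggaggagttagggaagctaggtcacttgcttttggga

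Isg15 held 3 exact matches to this core, which overlap in a run of GAAA repeats from position −78 to −57 before the start. An exact match was present in 1131 of 32851 RefSeq promoter windows of the same length (3.44%). None of the 300-base windows of Uba7, Ube2l6 and Herc6 held one. The letters TTCNNNGAA, the core of the GAS element bound by dimers of STAT3 and related factors, were found on either strand in 8.3% of windows and in none of these 4. A match describes these letters only.

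The libraries were even in depth, with 24084827 to 25422171 fragments each as worked out from the values. Levels are FPKM, fragments scaled to the coding length of the gene and the total of the library, so levels of different genes compare per length. Epithelial markers were high in every library, with summed levels of 3821 to 3894 FPKM over the 16 tubule markers in the LPS-labelled libraries and 3809 to 3861 in the LPSKD-labelled ones. Most of this sum was keratins, and Slc34a1, Umod and Aqp2, which mark particular tubule segments, were listed at 0 throughout. Of the 11 tested tubule markers, limma called 4 higher (Pax2, Aqp1, Pax8 and Cdh16) and 1 lower (Krt18) in the LPSKD-labelled libraries (adjusted p under 0.05). Of all tested genes it called 1.57% higher and 1.66% lower. The 16 markers of immune, endothelial and stromal cells summed to 53.2 to 65.3 FPKM and 55.6 to 69.4 FPKM, and 1 of the 11 tested, Csf1r, passed the test, being higher in the LPSKD-labelled libraries. Pax2 and Pax8 stayed called whichever 1 library was left out, and the other 4 of these genes did not. The part of these shifts in the results below was not tested. Stat3 itself did not separate the groups, with 33.7 ± 2.02 FPKM in the LPS-labelled libraries and 33.4 ± 2.35 in the LPSKD-labelled ones (SD, n = 3 each), and its log2 fold change was −0.01 (limma adjusted p = 0.944). Every direction below therefore rests on the labels. The paper reports knockdown of Stat3 in mTECs by real-time PCR and western blot. It does not say whether those measurements were made on the cultures sequenced here. In bulk RNA, fewer cells that express a gene and less of its RNA per cell cannot be told apart.

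The modifier and its protease fell steeply in the LPSKD-labelled libraries, while the conjugating enzymes had smaller differences that missed the threshold. Isg15 was 5.82-fold and Usp18 15.1-fold lower in mean FPKM. The corresponding ratios were 1.27 for Uba7, 1.82 for Ube2l6 and 1.52 for Herc6. Differences were tested with limma on log2(FPKM + 0.1) over all 11723 genes, a scale on which the change of low genes is understated, and a gene was called at a Benjamini-Hochberg adjusted p under 0.05. By this rule 2 of the 5 genes were called, both lower, where 1.66% of all tested genes were called lower, 1.57% higher and 3.23% in either direction. The groups did not overlap for any of the 5 genes, each of them lower in the LPSKD-labelled libraries, against 13.2% of all tested genes, and 52.5% of all tested genes had a log2 fold change below 0. Groups without overlap and higher in the LPSKD-labelled libraries made up 10.6%, with no member among them. The median log2 fold change of the 5 genes was −0.82, beside −0.01 over all tested genes.

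**Figure D1:**
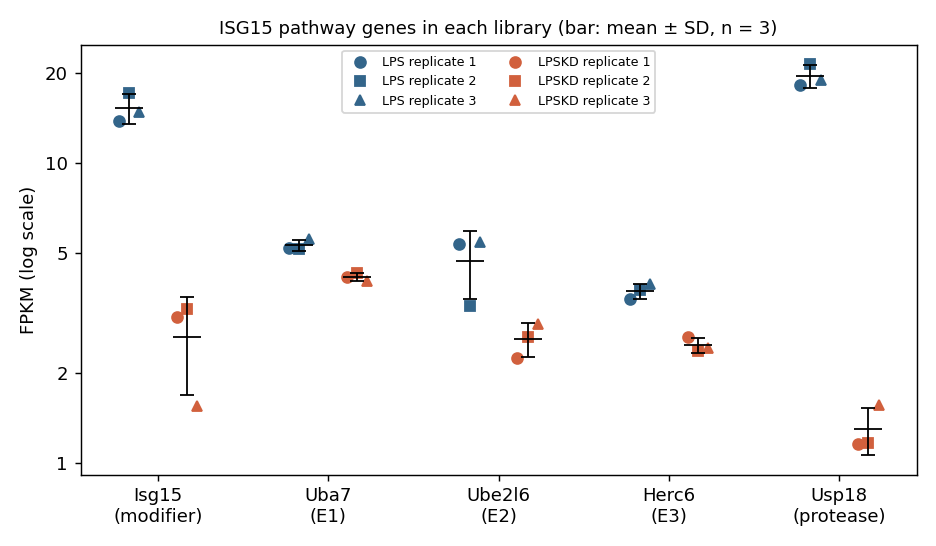
FPKM (log scale) of the 5 genes in each of the 6 libraries, with the mean and SD of each group of 3 as black bars; blue marks LPS-labelled libraries, orange the LPSKD-labelled ones, and the shape gives the replicate. Isg15 and Usp18 lie between 13.8 and 21.4 FPKM in the LPS-labelled libraries and between 1.16 and 3.27 in the LPSKD-labelled ones, whereas Uba7, Ube2l6 and Herc6 stay between 2.24 and 5.58 in all 6.

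Isg15 (ENSMUSG00000035692) encodes the modifier and occupies bases 156199424 to 156200818 of chromosome 4 (GRCm38, minus strand). Its level was 13.8, 17.2 and 14.8 FPKM in the LPS-labelled libraries and 3.07, 3.27 and 1.55 FPKM in the LPSKD-labelled ones. Every LPSKD-labelled library was below every LPS-labelled library, and replicate 3 of the former was the lowest. The coding sequence is short, so these levels rest on 166, 207 and 175 fragments against 37, 38 and 19. It fell by 2.56 on the log2 scale (standard error, SE, 0.25, limma adjusted p = 0.00138), with a 95% confidence interval from −3.14 to −1.98. It was the 10th largest fall among the tested genes. Without replicate 3 of the LPSKD-labelled libraries the log2 fold change was −2.23 (limma adjusted p = 2.76e-04). Of the 453 stretches of 31 bases in its coding sequence, 74 (16.3%) also occur in AC151275.1, a processed pseudogene on chromosome 17, so that some fragments could belong to either.

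Usp18 (ENSMUSG00000030107), the protease that removes ISG15, occupies bases 121245906 to 121270917 of chromosome 6 (plus strand). The LPS-labelled libraries held 18.3, 21.4 and 19.0 FPKM, and the LPSKD-labelled ones held 1.16, 1.16 and 1.56 FPKM. The groups were far apart, and within each group the libraries were close together. The fragments behind these levels were 503, 590 and 513 in the former and 32, 31 and 44 in the latter. Its log2 fold change was −3.83 (SE 0.14, limma adjusted p = 1.08e-05), with a 95% confidence interval from −4.15 to −3.50. No tested gene fell further. An antisense gene, Gm44148, overlaps exons of Usp18 and shares 8.94% of its coding stretches of 31 bases, and since the sources used here do not say whether strand was kept, fragments of both genes cannot be told apart there.

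Uba7 (ENSMUSG00000032596), which starts the conjugation chain, lies on chromosome 9 from 107975505 to 107984060. It held 5.21, 5.18 and 5.58 FPKM in the LPS-labelled libraries and 4.17, 4.30 and 4.06 FPKM in the LPSKD-labelled ones. The groups did not overlap, but the difference in means was 21.6% of the level. Its log2 fold change of −0.34 (SE 0.11, limma adjusted p = 0.142) missed the threshold. Of its coding stretches of 31 bases 5.63% occur also in the overlapping gene Gm20661, which was listed at 0 in all 6 libraries.

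Ube2l6 (ENSMUSG00000027078), the E2 that takes ISG15 from UBA7, lies on chromosome 2 from 84798828 to 84810335. Its level was 5.38, 3.34 and 5.48 FPKM in the LPS-labelled libraries and 2.24, 2.63 and 2.92 FPKM in the LPSKD-labelled ones. Replicate 2 of the LPS-labelled libraries was closer to the other group than to its own. It had the fewest fragments of the 5 genes in the LPS-labelled libraries, with 74, 46 and 74, against 31, 35 and 41. The log2 fold change was −0.82 (SE 0.21, limma adjusted p = 0.0876). Without replicate 2 of the LPS-labelled libraries it was −1.04 and past the threshold (limma adjusted p = 0.0215). Its coding sequence shares no stretch of 31 bases with another annotated gene.

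Herc6 (ENSMUSG00000029798), the ligase, lies on chromosome 6 from 57581000 to 57664632. The LPS-labelled libraries held 3.51, 3.76 and 3.95 FPKM, and the LPSKD-labelled ones held 2.63, 2.35 and 2.43 FPKM. The groups were separate with little spread, from 172 to 293 fragments per library. The log2 fold change was −0.58 (SE 0.14, limma adjusted p = 0.0649). This gene is the nearest of the 3 enzymes to a call, and it passed in fits that weight the variance otherwise, with an adjusted p of 0.0252 without the trend in limma's eBayes step and 0.0109 with limma's voom on fragments. Of its coding stretches 39.2% occur also in Gm45193, a transcript that overlaps it on the same strand, so its own level is uncertain.

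The order of the 5 levels differed between the groups mainly in the place of Usp18, which was first under the LPS label and last under the LPSKD label. In the LPS-labelled libraries, Usp18 (19.5 ± 1.66 FPKM) and Isg15 (15.3 ± 1.75) stood above Uba7 (5.32 ± 0.223), Ube2l6 (4.73 ± 1.20) and Herc6 (3.74 ± 0.222; SD, n = 3 each). In the LPSKD-labelled libraries, Uba7 was highest (4.18 ± 0.12) and Usp18 lowest (1.29 ± 0.233). Between them Isg15 (2.63 ± 0.940), Ube2l6 (2.60 ± 0.337) and Herc6 (2.47 ± 0.142; SD, n = 3 each) were closer to each other than their spread. Uba7 and Ube2l6 overlapped in the LPS-labelled libraries. The summed level of the 5 genes was 46.2 to 50.9 FPKM in the LPS-labelled libraries and 12.5 to 13.7 FPKM in the LPSKD-labelled ones. Isg15 and Usp18 made up 69.2% to 75.9% of that sum in the former and 24.9% to 32.3% in the latter. None of the 5 was abundant, since even Usp18 in the LPS-labelled libraries was above only 47.5% of the tested genes.

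Whether the genes changed by unequal amounts was asked from the log2 ratio of each pair within a library, which any scaling of a whole library leaves almost untouched. Of the 10 pairs, 8 had ratios that did not overlap between the groups. All of these except Uba7 with Herc6 hold Isg15 or Usp18, the genes with the largest falls. The pairs share genes and are not independent, and the share among pairs of other genes was not worked out. With 3 libraries per group the smallest two-sided p of an exact permutation test is 0.1, which these 8 pairs reached (adjusted p = 0.125 over the 10 pairs). The largest shifts set the enzymes against Usp18. The Uba7 to Usp18 ratio of FPKM was 0.285, 0.242 and 0.294 in the LPS-labelled libraries and 3.60, 3.70 and 2.60 in the LPSKD-labelled ones, a shift of 3.48 in the log2 ratio.

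Herc6 and Ube2l6 shifted against Usp18 by 3.25 and 3.01 on the same log2 scale. Isg15 and Usp18 also moved apart. There were 0.756, 0.804 and 0.782 FPKM of Isg15 per FPKM of Usp18 in the LPS-labelled libraries, a narrow range, and 2.65, 2.81 and 0.990 in the LPSKD-labelled ones. The shift was 1.27 in the log2 ratio, and 1.73 without replicate 3 of the LPSKD-labelled libraries. The 3 smallest shifts were those among the enzymes. Ube2l6 against Herc6 shifted by −0.23 (exact p = 0.4, adjusted p = 0.4) and Uba7 against Ube2l6 by 0.47 (exact p = 0.2, adjusted p = 0.222), with overlapping groups in both. Uba7 against Herc6 shifted by 0.24 with groups that did not overlap (exact p = 0.1, adjusted p = 0.125). The shift of Ube2l6 against Herc6 depended on single libraries, at −0.08, −0.47 and −0.15 without LPS replicates 1, 2 and 3 and −0.09 without LPSKD replicate 1.

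**Figure D2:**
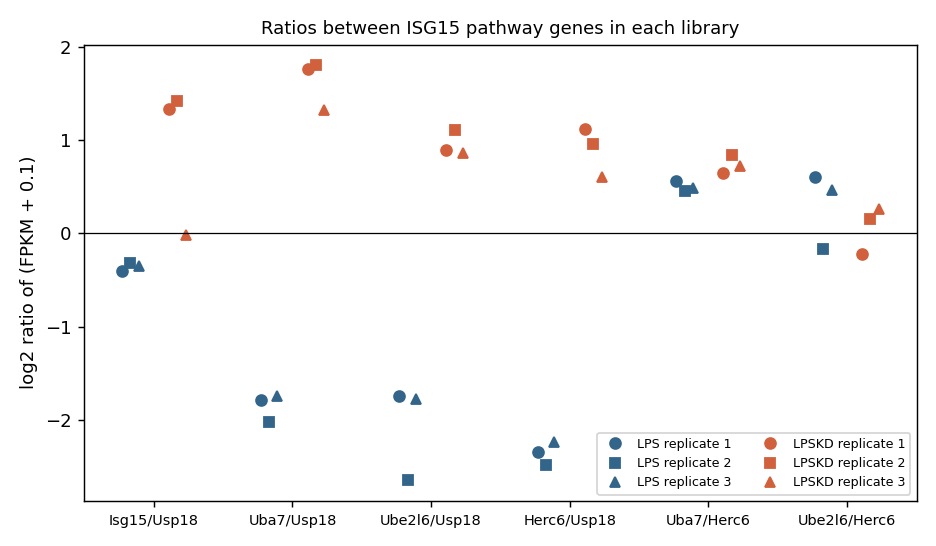
Log2 ratios of (FPKM + 0.1) for 6 of the 10 pairs, 1 point per library, with blue for LPS-labelled libraries and orange for the LPSKD-labelled ones. Ratios to Usp18 are below 0 in every LPS-labelled library and above 0 in the LPSKD-labelled ones, except Isg15/Usp18 at −0.01 in LPSKD replicate 3, while Ube2l6/Herc6 overlaps between the groups.

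Each of these genes belongs to a family that serves other modifiers, and the families were compared from lists of their members. Among 12 tested genes of ubiquitin and ubiquitin-like modifiers, Isg15 was the only 1 called. The 11 others, among them the ubiquitin gene Ubb, the SUMO genes and Nedd8, had log2 fold changes from −0.01 to 0.14. Ubd, which encodes the interferon-inducible modifier FAT10, was under the minimum level. Isg15 was also the least abundant of the 12, at 15.3 FPKM in the LPS-labelled libraries against 39.8 for Atg12, the next.

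None of the 9 E1 genes was called by limma, and at an unadjusted p under 0.05 the count was 1, Uba7. The other 8, from Uba1 of the ubiquitin system at 308 FPKM to the autophagy gene Atg7 at 14.2 FPKM in the LPS-labelled libraries, had log2 fold changes from −0.06 to 0.02. Of 32 E2 genes, Ube2c (a cell cycle E2) fell by 0.20 on the log2 scale and Ube2g1 rose by 0.22 (limma adjusted p = 0.00990 and 0.0331). The call of Ube2g1 was lost when any 1 of the 6 libraries was left out (adjusted p from 0.0546 to 0.141 in limma), and that of Ube2c without LPS replicate 3 (0.0709), LPSKD replicate 1 (0.0554) or LPSKD replicate 3 (0.0642). Ube2l6 had the largest difference of the 32 in size, and Ube2l3, its close relative that serves ubiquitin, was at 246 ± 19.8 and 257 ± 2.75 FPKM (SD, n = 3 each; log2 fold change 0.06, limma adjusted p = 0.607).

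Of the HERC ligases, Herc1, Herc2, Herc3 and Herc4 had log2 fold changes from −0.08 to 0.07, beside −0.58 for Herc6, and limma called none of the 5 (at an unadjusted p under 0.05, Herc6 alone). Among 42 tested genes of the ubiquitin-specific protease family, 1 was called, Usp18. The 41 others ranged from −0.23 for Usp40 to 0.20 for Usp12, and neither of these passed (limma adjusted p = 0.167 and 0.135). At an unadjusted p under 0.05 in limma, 7 of the 32 E2 genes, 4 of the 42 proteases and 1 of the 12 modifiers passed. The share of all tested genes at that limit was not worked out. By the adjusted p, 3.23% of all tested genes were called in either direction. These lists are described by counts, and no test of a list was made.

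**Figure D3:**
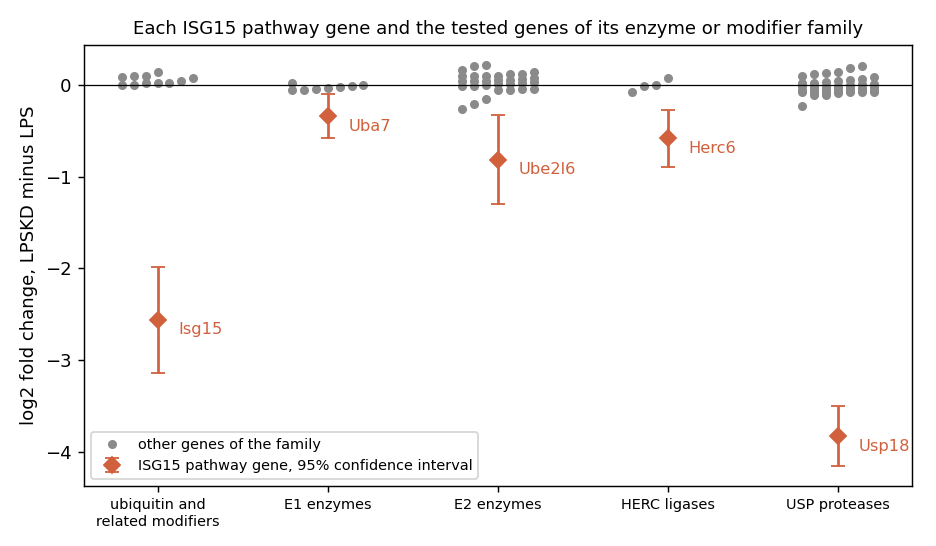
Log2 fold change (LPSKD minus LPS labels) of each ISG15 pathway gene, as an orange diamond with its 95% confidence interval, and of the other tested genes of its family as grey points. The grey points lie between −0.26 and 0.22, above all 5 diamonds, of which Uba7 at −0.34 is the nearest to them.

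Other enzymes and partners named with the ISG15 system were taken as a list of 17 genes, of which 14 were tested, 2 called lower and 0 higher. Of all tested genes 1.66% were called lower. Trim25, a ligase for both ubiquitin and ISG15, held 10.2, 8.75 and 8.90 FPKM in the LPS-labelled libraries and 3.92, 5.52 and 5.19 in the LPSKD-labelled ones. It fell by 0.93 on the log2 scale (SE 0.14, limma adjusted p = 0.0112). Stat2, through which USP18 is held at the interferon receptor, held 14.7, 13.9 and 15.9 FPKM against 9.67, 10.2 and 11. It fell by 0.52 (SE 0.08, limma adjusted p = 0.0131). Its call was lost without LPS replicate 3 (limma adjusted p = 0.0681), LPSKD replicate 1 (0.0607) or LPSKD replicate 2 (0.0562), and that of Trim25 without the trend in eBayes (0.0586).

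The receptor subunits themselves were not called. Ifnar2, the docking site of USP18, was at 8.37 ± 0.194 and 10.0 ± 1.39 FPKM (SD, n = 3 each; log2 fold change 0.25, limma adjusted p = 0.275), and Ifnar1 had a log2 fold change of 0.02. The alternative E2 genes Ube2e1 and Ube2e2 were at −0.05 and −0.26 (limma adjusted p = 0.740 and 0.236), and the ligase Arih1 at 0.01. Other proteases that can act on ISG15 kept narrow values, with log2 fold changes from −0.04 to 0.06 for Usp5, Usp14, Usp16, Usp21 and Usp24. Usp2 and Usp13 were under the minimum level, as was Itgal, which encodes a subunit of the receptor for free ISG15. The median of the 14 tested genes was −0.01, equal to that of all tested genes at 2 decimals.

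Proteins known to be modified by ISG15 were taken as a list, of which 13 genes are reported, 12 tested, 3 called lower and 0 higher. The share called lower over all tested genes was 1.66%. Ddx58, which encodes the RNA sensor RIG-I, had a mean of 19.3 ± 0.860 FPKM under the LPS label and 5.92 ± 0.430 under the LPSKD label (SD, n = 3 each). It fell by 1.69 on the log2 scale (limma adjusted p = 2.44e-05). Eif2ak2, the kinase PKR, went from 39.4 ± 1.64 to 23.7 ± 2.83 FPKM, a fall by 0.74 (limma adjusted p = 0.00302), and Trim25 is the other. The 9 others, such as Irf3, Jak1 and Trp53, had log2 fold changes from −0.09 to 0.10, and the median of the 12 was 0.04. Mx1 was under the minimum level, with 0.315 ± 0.0424 and 0.233 ± 0.184 FPKM (SD, n = 3 each).

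Irf9, the DNA-binding partner of STAT2, went from 21.2 ± 0.422 to 5.48 ± 0.883 FPKM (SD, n = 3 each) and fell by 1.94 on the log2 scale (limma adjusted p = 6.51e-05). The falls of Isg15 and Usp18 were larger than those of Irf9 and Stat2. The differences of Ube2l6, Herc6 and Uba7, which were not called, were smaller than the fall of Irf9. Beside Stat2 (−0.52), Ube2l6 (−0.82) and Herc6 (−0.58) had larger differences and Uba7 (−0.34) a smaller one. The order of Herc6 and Stat2 depended on the scale, since on log2(FPKM + 1) Herc6 was at −0.45 and Stat2 at −0.49. None of these orders was tested.

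**Figure D4:**
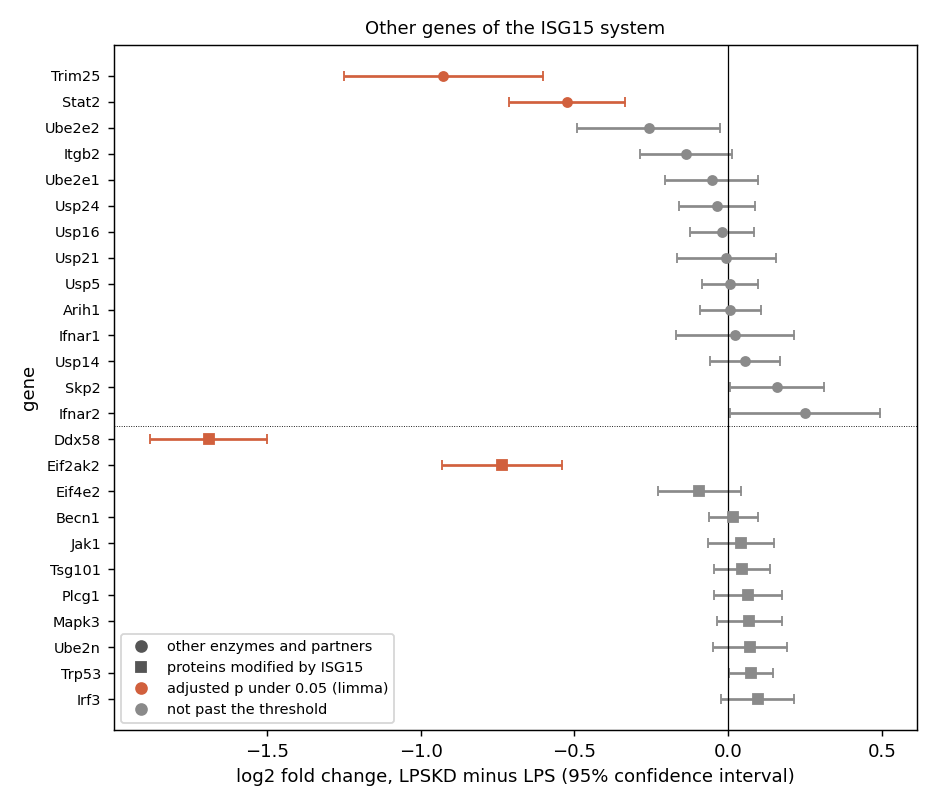
Log2 fold change (LPSKD minus LPS labels) with its 95% confidence interval for 14 other enzymes and partners of the ISG15 system (circles) and for 11 proteins modified by ISG15 (squares, Trim25 shown among the circles). Orange marks the 4 genes past the threshold, from −1.69 for Ddx58 to −0.52 for Stat2, and the grey genes lie between −0.26 and 0.25.

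The 5 genes lie at 5 separate places on 4 chromosomes, and their neighbours were compared to see whether the change extended beyond them. The nearest tested gene on each side was between 1.9 and 47.1 kb away. None of these 10 genes was called by limma, 0 passing at an unadjusted p under 0.05, and their log2 fold changes lay between −0.28 and 0.10. Of all tested genes 3.23% were called in either direction, so that a count of 0 among 10 is near the background. With an SE of 0.36 for Gm20662 and 0.26 for Serping1, a change of these neighbours could be missed. Agrn, 1.9 kb from Isg15, was at 0.02 (limma adjusted p = 0.871) and Plekhn1, on its other side, at −0.06. Pex26 and Slc6a13, on either side of Usp18, were at −0.25 and −0.28 (limma adjusted p = 0.297 and 0.470).

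Genes with the most similar profile were found from the root mean square difference of their centred log2 values over the 6 libraries. This measure includes the difference between the groups, so genes nearest to one with a large fall have large falls themselves. For Usp18 the nearest genes were Ifit1 (0.22), Apol9b (0.39) and Xaf1 (0.50). For Isg15 they were Oas3 (0.30), Gbp2b (0.36) and Oas1a (0.41), so that each of the genes called had interferon-stimulated genes as its nearest. The Apol9, Gbp and Oas genes have close relatives with which fragments could be shared. The nearest genes of Uba7 were Igsf11, Abcb1b and Nexmif (0.03 to 0.04). Those of Ube2l6 were Nxpe4, Arid3b and Trim12c (0.16 to 0.19), and those of Herc6 were Gm12185, Areg and Krt20 (0.06 each). Some of the nearest genes were low in the LPSKD-labelled libraries, with mean levels of 0.114 FPKM for Oas3, 0.269 for Gbp2b, 0.495 for Nxpe4 and 0.477 for Gm12185. Among the 5 genes themselves, Isg15 was the 9th nearest gene to Usp18 at 0.79, and Uba7 the 61st nearest to Herc6 at 0.14. Counted from the other gene of each pair, Usp18 was the 39th nearest to Isg15 and Herc6 the 1273rd nearest to Uba7.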

How the data were processed

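RNA was measured in 6 libraries of LPS-treated mTECs, 3 labelled LPS and 3 labelled LPSKD, from poly(A) RNA read as paired ends. The authors deposited FPKM values, with 1 column per library and no pooling. The submitters' processing notes list Bowtie 0.12.2, HISAT2 2.0 and StringTie 1.3.0 and the builds mm8 and GRCh38.p13 with no role, and the gene models are not given in the sources used here. Symbols, coordinates and merged coding lengths came from GENCODE M21 (GRCm38), which matched 22399 of 22442 identifiers. At that length, or up to 10 bases more, 97.8% of the 16837 genes above 0 gave whole fragments within 0.01 or a rounding limit in all libraries, all 5 ISG15 genes among them. With totals raised by 0.1% this was 1.16% of genes over 100 fragments.

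Groups were compared with limma 3.58.1 in R 4.3.3 with a trended eBayes step, on log2(FPKM + 0.1), keeping genes whose mean reached 0.5 FPKM. The procedure was also run on simulated data with the same noise for every gene, which does not test the trend. The alternatives were pseudocounts, filters, normalizations, eBayes without trend, voom on fragments, the replicate block and the omission of each library. The confidence intervals of 95% are unadjusted. Flanking genes, promoter motifs and shared stretches of 31 bases (searched in 141767 transcripts) were added after the data were examined. Ratios were compared with exact permutation over 20 label assignments, and figures used matplotlib 3.10.9. The genes and lists were chosen with earlier results of these data known. Named genes were the 5 members, Stat3, list genes past the threshold, the 2 largest differences per list that missed it, the 3 nearest profiles per member and genes that share stretches; other named genes were chosen as examples after their values were seen. Some genes of the lists are not reported here.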

Additional observations from a re-analysis of the deposited data

How the results depend on the processing

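Isg15 and Usp18 were called under all 16 alternatives, with adjusted p between 1.11e-04 and 0.0252 and between 2.79e-07 and 0.00129 (limma), and all 5 genes kept their direction. Uba7 was not called under any of them (adjusted p 0.0526 with limma's voom, and just above the threshold without trend). Herc6 passed without the trend in eBayes (log2 fold change −0.58) and with voom (−0.60). With 1 library left out Ube2l6 lay between −1.04 and −0.69. The count of all called genes (379) became 140 without trend, 213 with the replicate block and 584 with voom, and lay between 158 and 356 with 1 library left out (158 without LPS replicate 3, and 178, 192 and 168 without LPSKD replicates 1, 2 and 3). Of the other enzymes and partners, 2 were called, and 1 without trend or with the replicate block, and between 1 and 2 with 1 library left out. Of the E2 genes, 2 were called, 0 without trend, 1 with the replicate block, 1 with voom and between 0 and 2 with 1 library left out. Of the HERC genes, 1 was called without trend and 1 with voom. The cause of these moves was not tested. No pair of the 5 genes reversed its shift. Same-numbered libraries did not deviate together over all tested genes (correlations −0.016, −0.00388 and −0.0426). Deviations from the group means cannot show whether cultures with the same number were paired. With the replicate block Isg15 stayed at −2.56 (limma adjusted p = 0.00593), Usp18 at −3.83 (4.04e-04) and Trim25 was lost (0.0525). In their lowest libraries Isg15 had 19 fragments and Ube2l6 and Usp18 31 each, so these levels carry the largest counting error of the 5 genes.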
